A study of Mus musculus with 4 samples.

Results

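The telomere-proximal 5 Mb of each mouse autosome comprised 1898 bins of 50 kb, out of 47928 autosomal bins and 51427 bins in the whole profile. They were chosen by position alone: a bin belonged to the set when it started less than 5 Mb before the last bin with a value on its chromosome. Each of the 19 autosomes contributed 100 bins except chromosomes 2 and 13, which contributed 99 because 1 bin of each window has no value. Replication timing (RT) came from population-based Repli-seq of F121-9 cells, a diploid mouse embryonic stem cell (mESC) line of the hybrid strain cas/129 grown in N2B27 medium with 2i and LIF. Cells were labeled with the nucleotide analog BrdU and sorted into an early and a late S-phase fraction, with 2 libraries of each and 4 in all. The deposited RT is the log2 of early over late RPM (reads scaled to the same library total) in a bin, so that bins above 0 are called early here and bins at or below 0 late. The 4 libraries are combined in a single value per bin, the number of reads is unknown, and the line is a single hybrid whose homologs are averaged. No difference below therefore carries an error between replicates, and none was tested. The scatter of a bin around its neighbors had an SD of 0.14 log2, which covers noise along the chromosome only.

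Mouse chromosomes are telocentric, with the centromere at one tip and a single long arm that runs to the distal telomere. The telomere is a tract of TTAGGG repeats that protects the chromosome tip, and the unique sequence next to it is called the subtelomere. Early replicating domains in mammals are typically rich in genes and in G and C bases and lie in the nuclear interior, whereas late domains are poor in both and often contact the nuclear lamina.

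The last 240 assembled bases of chromosome 4 in mm10 are shown first. This is the only autosome whose assembly does not end in TTAGGG repeats, so no repeat tract marks its distal end. No whole TTAGGG unit is present, and so none is in capitals.
Chromosome 4 end, chr4:156357877-156358116, plus strand: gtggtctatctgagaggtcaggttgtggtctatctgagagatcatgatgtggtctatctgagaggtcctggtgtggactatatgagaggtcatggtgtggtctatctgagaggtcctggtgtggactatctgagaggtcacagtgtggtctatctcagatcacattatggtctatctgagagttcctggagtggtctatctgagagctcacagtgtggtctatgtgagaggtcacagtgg
Counting stretches of at least 4 units in a row, the assembly ended in a telomere repeat tract within 4 bases of its last base on 18 of 19 autosomes. The tracts held between 6 units on chromosome 9 and 114 on chromosome 14. The assembled sequence thus ends in telomere-type repeats on these 18 chromosomes. Such tracts also occur inside chromosomes, so a short one does not establish that the telomere is reached. The last bin with a value was the bin that holds the last assembled base on all 19.

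The bins at the distal end of the assembled sequence replicated early on every autosome. RT of the last bin was above 0 on 19 of 19 ends, against a background of 42.1% of all autosomal bins above 0. It ranged from 0.43 on chromosome 14 to 2.86 on chromosome 17, with a median of 2.11 and a mean of 1.93 ± 0.69 (SD over 19 chromosomes, which are not replicates). The second last and the third last bins were above 0 on 19 of 19 ends as well. The fourth last bin was above 0 on 15, the exceptions being chromosomes 3, 12, 14 and 15. RT of the last bin was above 1 on 17 of 19 ends, against 33% of all autosomal bins. The values below 1 were 0.43 on chromosome 14 and 0.45 on chromosome 18, in bins that hold 2.24 kb and 2.64 kb of assembled sequence.

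In 8 of the 19 last bins less than 25 kb was assembled, down to 1.21 kb on chromosome 8. When the last bin with at least 25 kb assembled was taken on each chromosome, RT was above 1 on 19 of 19 ends and ranged from 1.12 on chromosome 14 to 2.86 on chromosome 17, with a median of 2.17. The next bin inwards stood at 1.12 on chromosome 14 and 2.61 on chromosome 18, so both of the lowest last bins lay beside a higher one. Whether the profile was smoothed is not stated, and the last 3 bins of an end are not independent of each other.

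The median profile of the 19 ends fell from 2.11 in the last bin to 0.41 at 200 kb and -0.02 at 500 kb, where 9 ends were above 0. The single ends fanned out from a narrow range in the last bin to a range from -3.23 to 3.70 at 500 kb. At the opposite edge of the chromosomes, the first bin with at least 25 kb of assembled sequence was above 0 on 2 of 19, with a median RT of -1.80 and a range from -4.14 to 1.59. The first assembled bin of a mouse chromosome lies beyond a centromeric gap in the assembly, so this edge is not a chromosome tip.

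The early tip was in many cases short and stood out from late DNA. Counted inwards from the end, the unbroken stretch of early bins had a median length of 300 kb and was under 500 kb on 10 of 19 ends. The shortest, of 150 kb, were on chromosomes 3, 12, 14 and 15. The longest was the whole window of chromosome 11. RT of the last bin with at least 25 kb assembled was compared with the bin 500 kb nearer the centromere. It was higher on 13 of 19 ends, against 50.4% of all autosomal bins for which both values exist, and higher by at least 2 on 10 of 19, against 16.2%. These backgrounds include late bins, whereas all 19 tip bins were above 1. The excess is therefore no result separate from the early tips. The median difference was 3.15. The largest differences were on chromosome 17, where RT went from -3.23 to 2.86, a rise of 6.09, and on chromosome 18, where it went from -3.46 to 2.61, a rise of 6.07. Chromosomes 12 and 3 followed with rises of 5.13 and 4.46. RT was lower at the tip on 6 ends, by at most 1.93 (a difference of -1.93 on chromosome 15), and on these the bin 500 kb inwards stood between 2.73 and 3.77. On those 6 ends RT at both positions was above 0.

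Transitions were counted as passages between RT 1 and RT -1 with no gap over 200 kb. The windows held 45, or 47.4 per 100 Mb against 45.7 over all autosomes, with a median length of 200 kb in both. These include the steps of 50 kb into and out of a single bin of chromosome 15, described at the end. After a running median over 5 bins the windows held 37, and no such count was made over all autosomes. Of the 45, 28 ran from late to early towards the end and 17 from early to late, against 554 and 541 over all autosomes. The 45 transitions lay on 17 of the 19 ends. Since every tip was early, the last one of an end could only run from late to early. The ends of chromosomes 9 and 11 had none: chromosome 11 stayed above 0 throughout, and chromosome 9 ranged from -0.97 to 3.15. Averaged over the last 500 kb, RT was above 0 on 11 of 19 ends, against 42.1% of 500 kb windows of all autosomes, and averaged over the last 250 kb it was above 0 on 19 of 19.

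Most bins of the tips had a base composition at which bins elsewhere were mostly late. The last 150 kb of the 19 ends held 57 bins, with a mean GC content of 40.9%, against 41.9% over all autosomal bins. Every bin counted alike in this mean and in the GC classes, also the 8 last bins with less than 25 kb assembled. All 57 bins were above 0, with a median RT of 1.92, and 52 of them lay below the highest of 5 classes of equal size by GC content over the autosomes. Of the 57, 10 were in the class of lowest GC, with RT from 0.54 to 2.64, and outside the distal windows 3.99% of the bins of that class were early. A further 23 were in the next class, with RT from 0.29 to 2.86, where 15.5% of the bins outside the windows were early. Bins without the start of a protein-coding gene numbered 34 of the 57, with a median RT of 1.86. That all 34 were above 0 follows from all 57 being so and is no separate result. Outside the distal windows 30.4% of bins without a start were early. The mean repeat-masked share of a bin was 46.4% in the last 150 kb and 33.5% over all autosomal bins, with partly assembled bins counted like full ones. How well reads map in these bins was not tested.

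**Figure D1:**
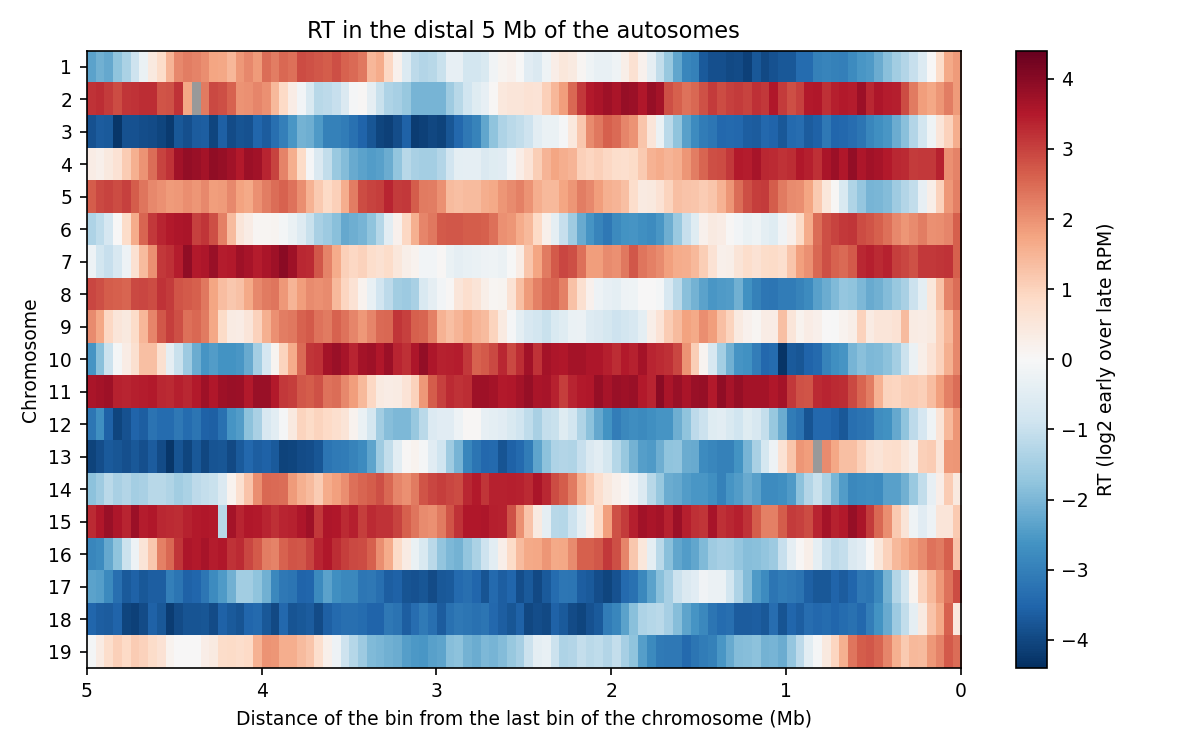
RT of every bin in the distal 5 Mb, 1 row per autosome, with the distance from the last bin in Mb on the horizontal axis (the chromosome end at the right) and RT (log2 early over late RPM) as color, red for early and blue for late. Bins without a value are gray. The right margin is red in all 19 rows, and the rows of chromosomes 17 and 18 are blue over 94 and 95 of their 100 bins.

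Gene starts per bin at the tips were near the value over all autosomal bins and below that of the whole windows. The last 150 kb held 28 protein-coding gene starts, or 9.82 per Mb. The values were 8.65 over all autosomal bins and 11.97 over the distal 5 Mb, and the differences were not tested. They lay on 15 of the 19 ends, and 4 ends had none. Unassembled bases count in this length, and in 8 of the last bins less than 25 kb was assembled. The density per assembled base at the tips was therefore above 9.82 per Mb. The last named protein-coding gene of each end, chosen by position, started between 4.76 kb (Tcstv3) and 234 kb (Ccdc7b) from the last assembled base. It started in an early bin on 16 of 19 ends, next to 82.5% of all gene starts in the windows and 74.1% over the autosomes. Any gene that starts in the last 150 kb counts as early here, because all bins there were early. Tcstv3 on chromosome 13, a member of a gene cluster known from cells of the 2-cell-like state, had an RT of 1.95. Mrgprd on chromosome 7, which encodes a G protein-coupled receptor of sensory neurons, had 2.65. Rfc3 on chromosome 5, a subunit of the clamp loader that places PCNA on DNA, had 1.92. Csf2ra on chromosome 19, a subunit of the GM-CSF receptor, had 2.19. The last named genes in late bins were Cr2 on chromosome 1, a complement receptor of B cells, at -0.60, Fgf14 on chromosome 14, a regulator of neuronal sodium channels, at -0.37, and Ccdc7b on chromosome 8, at -0.96. These 3 started 195, 125 and 234 kb from the last base, inside the falling part of the profile.

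Chromosomes 18 and 17, which had the largest rises over the last 500 kb, were late over most of the rest of the window. On chromosome 18 the late run covered 4750 kb (chr18:85650001-90400000) with a mean RT of -3.29. It held Neto1, an auxiliary subunit of glutamate receptors, at -3.95, Cbln2, a synaptic organizer, at -3.97, and Dok6, an adaptor of receptor tyrosine kinases, at -3.35. Rttn, a centriole protein, and Socs6, an inhibitor of cytokine signaling, stood at -1.46 and -1.17 in the same run. Tmx3, a thiol oxidoreductase of the endoplasmic reticulum, started 92.5 kb from the last base at 1.66.

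On chromosome 17, Mettl4, an RNA adenine methyltransferase, started 137 kb from the last base at 1.90. The late run between the inner edge of the window and the tip covered 4700 kb (chr17:89900001-94600000) with a mean RT of -2.91. On chromosome 3, Negr1, a neuronal adhesion protein, and Lrrc7, a postsynaptic scaffold, stood at -3.75 and -3.47, Rpe65, the isomerase of the visual cycle, at -2.18, and Cth, an enzyme of cysteine synthesis, at 2.64 in an early island. Wls, the carrier of Wnt proteins to the cell surface, ended this chromosome at 0.54.

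Promoters of an early tip gene and of a late gene deeper in a window are printed because both are rich in CpG and their bins differ in timing. They are RefSeq promoters of mm10 (GRCm38) from 250 bases before to 50 after the start, with CG in capitals.
Mettl4 promoter, chr17:94749970-94750269, minus strand: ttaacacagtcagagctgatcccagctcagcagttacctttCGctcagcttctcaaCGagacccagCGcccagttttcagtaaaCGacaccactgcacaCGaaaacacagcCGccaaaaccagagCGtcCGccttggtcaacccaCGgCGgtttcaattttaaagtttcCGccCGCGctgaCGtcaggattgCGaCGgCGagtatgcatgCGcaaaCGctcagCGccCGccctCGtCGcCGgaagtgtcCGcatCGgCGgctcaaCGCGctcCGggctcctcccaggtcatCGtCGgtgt
Negr1 promoter, chr3:156561544-156561843, plus strand: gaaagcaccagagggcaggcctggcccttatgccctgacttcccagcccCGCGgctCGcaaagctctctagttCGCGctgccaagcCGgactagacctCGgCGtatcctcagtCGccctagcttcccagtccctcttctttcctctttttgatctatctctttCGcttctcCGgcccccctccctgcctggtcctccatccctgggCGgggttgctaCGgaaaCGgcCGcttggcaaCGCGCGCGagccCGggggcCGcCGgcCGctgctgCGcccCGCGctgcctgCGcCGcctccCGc
The Mettl4 promoter, in a bin at 1.90, held 32 CG and the Negr1 promoter, in a bin at -3.75, held 29. RefSeq promoters were matched by symbol for 868 genes that start in the windows. At least 10 CG were present in 69.3% of the 720 promoters in early bins and in 42.6% of the 148 in late bins. Over all 32851 RefSeq promoters the share was 43.5%. That set exceeds the 20732 protein-coding gene starts of the autosomes, so it is not a matched background. A late run of chromosome 10 (chr10:129150001-130350000), which includes many olfactory receptor genes, held 54 gene starts. Its weight in the late share was not tested. These are counts of letters in the promoters, and the differences were not tested.

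Over the whole 5 Mb the windows were earlier than the autosomes at large, with wide variation between ends. The median RT of the 1898 bins was 0.35, with quartiles of -2.04 and 2.44, against a median of -0.85 over all autosomal bins. Early bins numbered 1032, or 54.4% (95% interval by the exact binomial method from 52.1% to 56.6%, for counting error only and with neighbors treated as independent), compared with 42.1% over all autosomal bins. In the centromere-proximal 5 Mb the share was 40.1%, with a median RT of -0.92. The difference lay more at the late side of the range than at the early side: 15.3% of the distal bins were below -3, against 26.6% of all autosomal bins, and 16.6% were above 3, against 12.3%. The low share below -3 was shared with the centromere-proximal 5 Mb, where it was 18.3%, and 12.9% of the bins there were above 3. Without the last 500 kb of each end, the share of early bins was 52.6% and the median RT 0.21.

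Mean RT of a window was above 0 on 12 of 19 ends, against 36.7% of 472 tiles of 5 Mb counted from the distal end. Of 491 tiles in all, 19 with fewer than 80 bins were left out, namely the incomplete innermost tile of most chromosomes and the tile next to the distal window of chromosome 2. It was above the mean of the rest of the chromosome on 13 of 19, against 48.3% of tiles compared in this way. The difference from the rest of the chromosome had a median of 1.22 and a mean of 0.73 ± 1.71 (SD over 19 chromosomes). The size of this median depended on the window: it was 0.48 with a window of 2.5 Mb and 0.61 with 10 Mb. Ends with a window mean above 0 numbered 10 with 2.5 Mb and 9 with 10 Mb. Ends above the rest of their chromosome numbered 12 and 14. The highest window means were 2.98 on chromosome 11, 2.62 on chromosome 15, 1.81 on chromosome 2 and 1.80 on chromosome 7. The lowest were -3.06 on chromosome 18, -2.63 on chromosome 17, -2.38 on chromosome 3, -1.84 on chromosome 13 and -1.64 on chromosome 12. The window of chromosome 11 was the earliest of the 23 tiles of its chromosome, whereas those of chromosomes 17 and 18 were the latest of 18 and of 17. Chromosome 15 exceeded the rest of its chromosome by the most, 3.32, and chromosome 17 lay below it by the most, with a difference of -2.66. The order of the ends did not follow that of the chromosomes closely (Spearman correlation of 0.30 between window mean and mean of the rest, over 19 chromosomes).

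**Figure D2:**
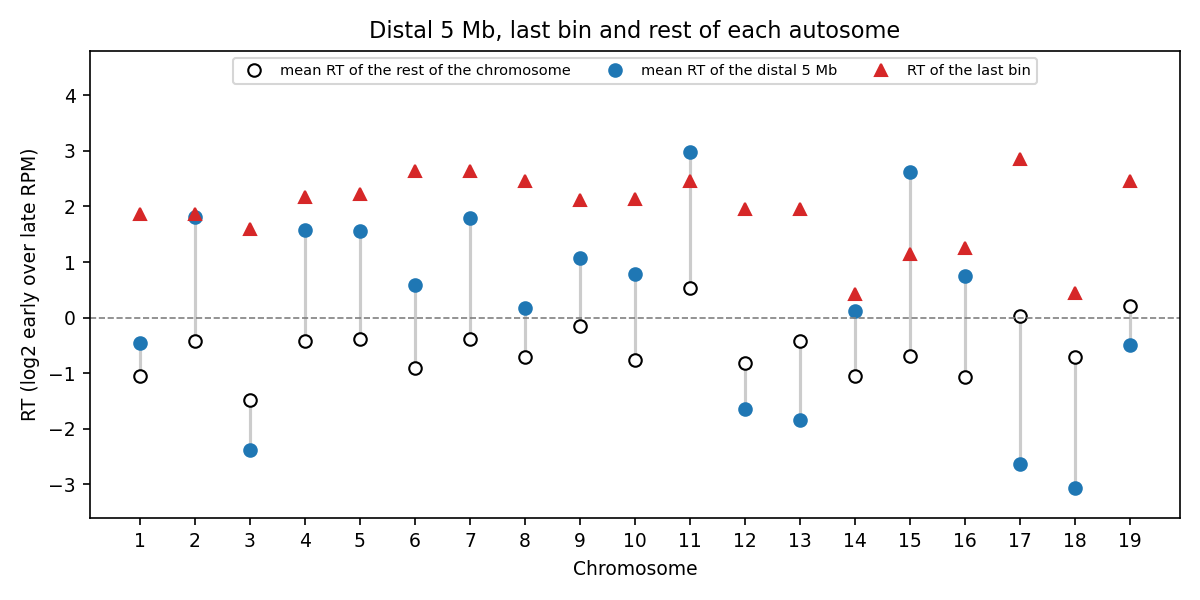
For each autosome, the mean RT of the distal 5 Mb (blue), the mean RT of the rest of the chromosome (open circles) and RT of the last bin (red triangles), all as log2 early over late RPM. The window means run from -3.06 to 2.98 while the last bins stay between 0.43 and 2.86. There is a single profile, so no error bars are drawn.

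Window means tracked base composition. Across the 19 ends, mean RT had a Spearman correlation of 0.92 with mean GC content and of 0.88 with the number of protein-coding gene starts, and across the other 453 tiles the values were 0.90 and 0.79. These are descriptions across regions that share the same libraries, and the part of GC content in the recovery of reads was not tested. The latest windows, of chromosomes 17 and 18, had a GC content of 37.5% and 37.6% with 4 and 9 gene starts. The earliest, of chromosome 11, had 49.6% with 110. The distal bins had a mean GC content of 43.8%, against 41.9% over all autosomal bins, and 35.2% of them held a gene start, against 28.3%. Of the distal bins, 40.4% fell in the class of highest GC.

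Within that class 83.6% of the 767 distal bins were early, against 88.5% of all autosomal bins of the class. In the class of lowest GC the shares were 5.12% of distal bins and 3.99% of the bins outside the windows, and in the next class 27.7% and 15.5%. In the middle class they were 42.7% and 37.1%, and in the next 59.6% and 64.9%. The distal share was thus the higher in the 3 lower classes and the lower in the 2 upper ones, and these differences were not tested. Outside the windows, the shares weighted by the GC classes of the distal bins came to 54.9%, next to 54.4% for the distal bins themselves. By number of gene starts, 40.9% of distal bins without a start were early against 30.4% of those outside, 74.4% against 66.3% with 1 start, 83.8% against 76.2% with 2, and 88.1% against 81.8% with 3 or more.

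**Figure D3:**
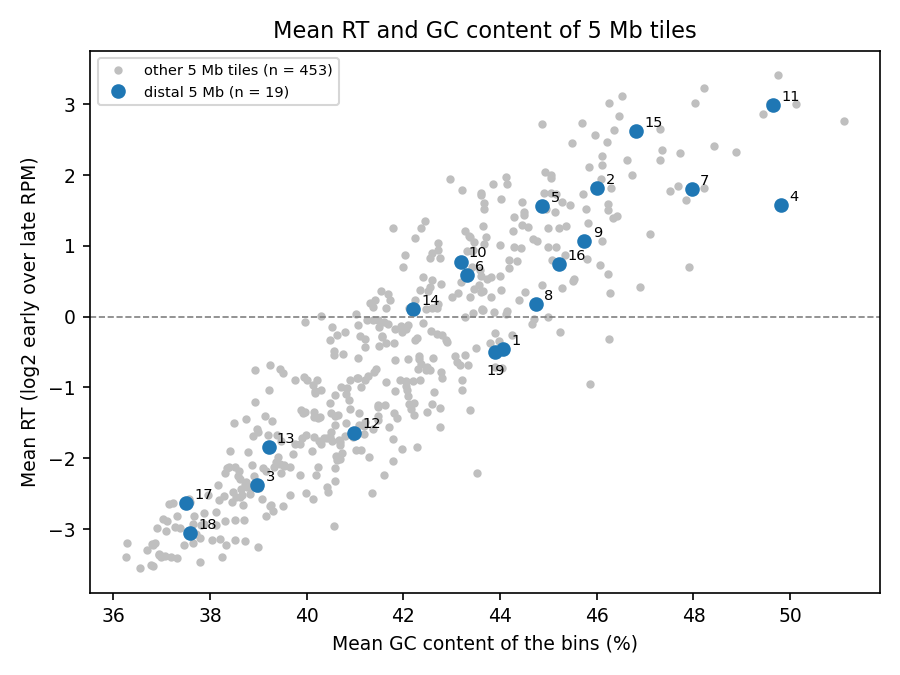
Mean RT (log2 early over late RPM) against the mean GC content of the bins, for the 19 distal windows (blue, labeled by chromosome) and the other 453 tiles of 5 Mb (gray). The distal windows lie among the other tiles, from chromosomes 17 and 18 at the lower left to chromosome 11 at the upper right.

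**Figure D4:**
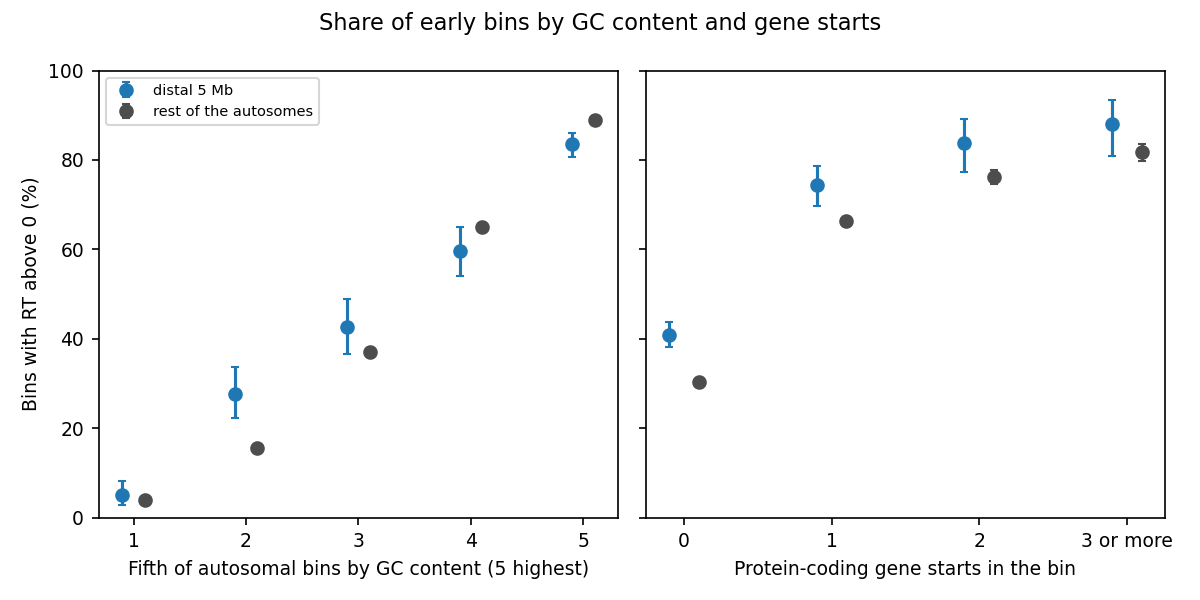
Percent of bins with RT above 0 by GC class (left, 5 the highest) and by number of protein-coding gene starts in the bin (right), for the distal 5 Mb (blue) and the rest of the autosomes (gray). Bars are exact 95% binomial intervals and cover the counting of bins only. The distal share is the higher in the 3 lower GC classes and the lower in the upper classes, and it is the higher in all 4 gene-start classes.

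The windows held 1136 protein-coding gene starts, of which 937, or 82.5%, lay in early bins, against 74.1% over the autosomes. Their median RT was 2.70, compared with 2.35. Of 143 landmark genes listed for these regions 136 overlapped a window, and of these 94, or 69.1%, started in an early bin and 42 in a late bin. RT was above 3 for 45 of them, or 33.1%, against 42.9% of all gene starts in the windows and 36.8% over the autosomes. It was below -3 for 10, or 7.35%, against 3.35% and 6.9%. The list was made by hand and is no sample of the genes in the windows.

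Examples of landmark genes in early bins, where most gene starts of the windows lay, are given first. On chromosome 10, Cdk4 and Cdk2, kinases of the G1 phase and of S-phase entry, stood at 3.62 and 3.40, and Gli1, a transcription factor of hedgehog signaling, at 3.78. On chromosome 11, Birc5, an inhibitor of apoptosis that acts in mitosis, and Tk1, a thymidine kinase, shared a bin at 3.79, and Fasn, the fatty acid synthase, stood at 3.67. The Polycomb genes Cbx2 and Cbx8 of the same chromosome shared a bin just above 3. On chromosome 7, Ccnd1, the cyclin partner of Cdk4, was at 3.40 and Hras, a small GTPase, at 3.47. Brca2 on chromosome 5, which acts in the repair of broken DNA, was at 2.82. Rtel1 on chromosome 2, a helicase that unwinds telomere loops, started 693 kb from the last base at 3.40.

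Developmental transcription factors fell on both sides. Zic2 and Zic5 on chromosome 14, which act in the early neural plate, shared a bin at 3.32. Pdx1 and Cdx2 on chromosome 5, regulators of pancreas and of trophectoderm, stood at 1.91 and 2.04, and Sim2 on chromosome 16 at 2.94. Isl1 on chromosome 13, a factor of motor neurons and heart progenitors, was at -3.63, Emx2 and Vax1 on chromosome 19, factors of the forebrain, at -1.78 and -1.07, and Sp8 on chromosome 12, a factor of limb and forebrain, at -0.54. Nalcn, a sodium leak channel on chromosome 14, was at -2.20, and Plxna2, a semaphorin receptor on chromosome 1, at -2.89. Nrp1, a receptor for semaphorins and VEGF on chromosome 8, was at -3.07 and its neighbor Itgb1, an integrin subunit, at -1.71. Chrna4 on chromosome 2, a subunit of a neuronal acetylcholine receptor, was early, at 3.08.

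The Hoxc cluster on chromosome 15, which patterns the body axis, had its 9 genes in 3 bins, all early, at 2.67 to 3.08. The type II keratin cluster on the same chromosome, structural genes of epithelia, formed a dip. Its 26 genes ran from 2.82 at Krt80 down to -1.26 at Krt6a and Krt6b and back to 3.06 at Krt8 and Krt18, the keratins of simple epithelia (Krt18 is the type I gene of the cluster), and 18 of 26 were in early bins, next to 69.8% of 53 keratin genes on all autosomes. On chromosome 9 all 10 chemokine receptor genes were early, in 7 bins, as were 100% of 19 on all autosomes. Their median RT was 0.43, against 1.52 for the 19. Cx3cr1 and Ccr8 were at 2.42, and the main cluster, from Cxcr6 at 0.15 to Ccr2 at 0.64, was near the limit between early and late. On chromosome 7, 11 of 14 genes of an imprinted region were early, or 78.6%. The shares were 82.5% for protein-coding gene starts in the windows and 74.1% over the autosomes. All 14 listed genes lay in the window. Kcnq1, a potassium channel, stood at 2.83 and Cdkn1c, an inhibitor of cyclin-dependent kinases, at 2.73. H19, Igf2 and Ins2 of this region, a noncoding RNA, a growth factor and insulin, stood at -0.31, -0.19 and -0.25. As the homologs are averaged, no parental difference can be seen here. The adjacent Fgf3, Fgf4 and Fgf15 were at 3.43, 3.43 and 3.27, whereas Fgf10 on chromosome 13 was at -1.77.

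Receptor and antibody gene families behaved unequally. Of 74 olfactory receptor genes, on chromosomes 7 and 10, 15 were early and the median RT was -2.06, next to 17.7% early of 1128 on all autosomes. Olfr794 on chromosome 10 was in the latest bin of all the windows, at -4.32. The 37 heavy chain V segments of the immunoglobulin locus on chromosome 12 were all late, with a median of -3.38 and a highest value of -1.41, and 7.08% of 113 on all autosomes were early. The 6 genes named for vomeronasal receptors, a family of pheromone receptors, were all early, in 5 bins, at 0.24 to 2.00. On all autosomes 11.4% of 316 were early. By its symbol Vmn2r-ps159, the highest of the 6, is a pseudogene. Of these 6, 4 started in the last 150 kb, where all bins were early: Vmn2r-ps159 on chromosome 4 at 2.00, Vmn2r18 on chromosome 5 at 1.03, and Vmn2r86 and Vmn2r87 on chromosome 10 at 1.02. Members of 1 cluster share bins and are not independent.

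Of the other families, 14 of 15 zinc finger (Zfp) genes, 7 of 7 TNF receptor genes and 19 of 21 solute carrier genes were early, against 91.7%, 95% and 81.3% of these families on all autosomes. Potassium channel genes were early in 6 of 9, integrin genes in 3 of 7 and fibroblast growth factor genes in 3 of 5, against 65.2%, 76.7% and 70%. Both collagen genes, on chromosome 2, were early, against 60.5% of 43 on all autosomes, and the windows held 0 of 60 serpin genes.

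Stretches of at least 4 TTAGGG units in a row, on either strand, were found in 235 autosomal bins other than the last bins, or 0.490% of all autosomal bins. Of these 42.6% were early, against 42.1% of all autosomal bins, with a median RT of -0.74 against -0.85. The windows held 31 of these bins, or 1.63% of the distal bins, of which 18, or 58.1%, were early, against 54.4% of all distal bins, and the latest stood at -3.96.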

How the data were processed

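Population-based Repli-seq of F121-9 mESCs was analysed as deposited. Per the study's methods, the authors scaled each fraction to RPM and computed, per 50 kb bin, a log2 enrichment in the early fraction. The deposited log2 values combine the 4 libraries in 1 column. The submitters' processing notes name Bowtie2, SAMtools, bedtools and mm10 without versions, and any smoothing or filter of this profile is not given in the sources used here. Reads per library are unknown, so no interval on RT can be given.

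Distal bins were those starting less than 5 Mb before the last bin of each autosome. GC content, masked bases, TTAGGG tracts and gene starts came from GRCm38, whose chromosome lengths enclose all bins, and GENCODE vM21. The noise SD is the scaled median absolute deviation of a bin from the mean of its neighbors. Gene RT is that of the bin holding the start. With a single profile, no test was made. The counting steps were tested on a simulated profile on the real bin positions. It had domains of constant RT with sharp borders, a constant early tip and random noise. As it had no gradual slopes, it does not show how the counts behave on real transitions.

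The regions, gene lists and alternatives were chosen with earlier results of these data known. Genes named are landmark genes listed per chromosome, the genes in the highest and lowest bins with a start on each end, listed families, and genes at the edges of regions singled out. The last named gene of each end was added afterwards, by position, as was the count for the last bin. Alternatives covered the window, the chromosome end, smoothing, the limits, missing bins and single chromosomes. Calculations used Python 3.11.15, numpy 2.4.6, scipy 1.17.1, pandas 2.3.3, pysam 0.24.0 and matplotlib 3.10.9. Some genes covered by these rules are not reported here.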

Additional observations from a re-analysis of the deposited data

How the results depend on the processing

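Of 69 alternative values for 10 results, 49 stayed within the limit set for them, which was the noise SD for RT, the exact binomial interval for shares and 1.5 times for counts. The median RT and the median difference from the rest of the chromosome did not change sign. The other results are counts and shares, which have no sign, so a reversal could not be seen for them. The count of ends with an early last bin was 17 with the limit at RT 1 and otherwise 19 of 19 under the alternatives run, or 20 of 20 with X added. With a window of 2.5 Mb the median difference from the rest of the chromosome was 0.48, transitions numbered 22, 89.4% of distal bins in the highest GC class were early and 78.7% of gene starts were. With 10 Mb the median RT was 0.51, the difference 0.61 and the transitions 92, as the longer windows hold more bins. With the limit at the median RT of all autosomal bins, -0.85, the early share was 63.2%, the last 500 kb was early on 18 ends, and 92.0% of bins in the highest GC class and 87.9% of gene starts were early. Without chromosome 11 the median RT was 0.15 and the early share 51.8%, and without chromosome 18 they were 0.56 and 57.1%, with a median difference of 1.36. States at RT 2 and -2 gave 29 transitions, the last 250 kb gave 19 early ends, and the 10% of bins with the highest GC gave 89.9%. Leaving out the last 500 kb of each end, chosen after seeing the data like the alternatives for the last bin, gave a median RT of 0.21. The cause of these shifts was not tested. No paired analysis was possible because the deposited column combines the replicates, and no replicate could be left out for the same reason. Depth, mapping of the repeat-rich tips and unassembled telomeric sequence limit what the last bins show.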

Other observations

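The X chromosome, which is not among the autosomes described, had the same order at its distal end. RT of its last 4 bins was 1.49, 2.39, 0.54 and 2.12, counted inwards from the end, and the unbroken early stretch was 650 kb long. Its distal 5 Mb held 88 bins with a value, 25% of them early, with a mean RT of -1.75, against -1.68 over the whole chromosome.

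The largest steps between neighboring bins in the windows were into and out of 1 bin of chromosome 15. The bin chr15:99700001-99750000 had an RT of -1.21, while its neighbors stood at 3.48 and 3.65, for steps of -4.69 and 4.86. It has 50000 assembled bases and a GC content of 49.8%, and 4 protein-coding genes start in it: Smarcd1, a subunit of a chromatin remodeling complex, Gpd1, an enzyme of glycerol metabolism, Cox14, which acts in assembly of cytochrome oxidase, and the predicted gene Gm17349. The next largest step, of -2.16, was into the last bin of chromosome 18. Whether the chromosome 15 value is a property of the cells or of the reads in that bin was not tested.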
